A study of Mus musculus with 12 samples.

Results

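The Myc and Max network was followed through 3 stages of mouse thymocyte development with and without normal Ikaros. Its members here are the 8 genes Myc, Mycn, Max, Mxd1, Mxd3, Mxd4, Mxi1 and Mnt, taken by gene symbol. They are 8 of the 18194 genes that the array names, read by 19 of its 45099 probe sets, none of which carries a second gene's symbol. The samples were sorted thymocytes of mice homozygous for the L allele of Ikzf1 (IkL/L), the gene of the zinc finger DNA-binding protein Ikaros, and of wild-type (WT) mice. Each genotype was sorted as DN3, DN4 and DP cells, which gave 6 groups of 2 Affymetrix arrays, 12 in all. Cells of 3 mice were combined for sorting, no treatment was recorded, and age and strain are not given in the sources used here. Because the labels do not say that the 2 arrays of a group came from separate pools of mice, p-values measure the spread between these arrays, which may be technical.

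Myc and Mycn are basic helix-loop-helix leucine zipper proteins that bind DNA and activate genes only when paired with Max. Mxd1, Mxd3, Mxd4, Mxi1 and Mnt also pair with Max, bind the same E-box sites and recruit Sin3 and histone deacetylase corepressors, so they oppose Myc. In the thymus, Myc is a target of Notch signalling and supports the growth and division of cells that pass beta-selection between the DN3 and DN4 stages. DP cells, which carry both CD4 and CD8, are mostly small and resting.

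The canonical E-box, CACGTG, was searched in RefSeq promoter windows (build GRCm38.p6) that run from 250 bases before to 50 bases after the start of a gene. Windows were matched for 7 members, and that of Myc was not analysed here. The windows of 3 members, Mxd4, Max and Mnt, each held CACGTG once. They are shown because the network's own binding letters lie in them, and they belong to a repressor that rose strongly in DP cells, the shared partner, and the member that moved least. Each is printed 5′ to 3′ on the gene's strand, with CACGTG in capitals. The letters are the same on both strands.
Mxd4: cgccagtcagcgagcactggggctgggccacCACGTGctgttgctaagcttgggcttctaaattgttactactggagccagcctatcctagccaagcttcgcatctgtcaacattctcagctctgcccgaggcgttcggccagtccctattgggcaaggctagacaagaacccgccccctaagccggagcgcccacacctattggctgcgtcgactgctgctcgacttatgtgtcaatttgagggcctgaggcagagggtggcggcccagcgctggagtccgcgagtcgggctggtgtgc
Max: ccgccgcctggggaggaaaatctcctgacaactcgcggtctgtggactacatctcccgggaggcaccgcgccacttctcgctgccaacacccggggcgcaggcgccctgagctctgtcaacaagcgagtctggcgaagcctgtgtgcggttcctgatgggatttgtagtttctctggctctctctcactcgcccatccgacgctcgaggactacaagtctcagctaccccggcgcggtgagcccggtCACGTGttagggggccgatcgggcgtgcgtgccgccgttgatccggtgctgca
Mnt: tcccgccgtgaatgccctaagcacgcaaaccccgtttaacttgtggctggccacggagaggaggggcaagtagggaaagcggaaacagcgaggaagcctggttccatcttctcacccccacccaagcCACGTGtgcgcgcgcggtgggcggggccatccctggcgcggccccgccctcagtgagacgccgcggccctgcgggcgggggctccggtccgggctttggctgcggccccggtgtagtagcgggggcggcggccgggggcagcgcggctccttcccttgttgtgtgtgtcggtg
The Mxd4 window is chr5:34187661-34187960 on the minus strand, and its CACGTG begins 219 bases before the start. The Max window is chr12:76962199-76962498 on the minus strand, and its CACGTG begins 3 bases before the start. The Mnt window is chr11:74830674-74830973 on the plus strand, with CACGTG beginning 123 bases before the start. CACGTG was present in 7.15% of all 32851 windows of this length. The windows of Mycn, Mxd1, Mxd3 and Mxi1, which has 3 windows, did not hold these letters. TGGGAA, the core of known Ikaros sites, was found on either strand in windows of Mxd3 and Mxi1 and in 25.6% of all windows. A match describes the letters of a window and was not tied to binding.

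All values are log2 intensities normalized by the authors with RMA, and a difference of 1 on this scale is a factor of 2. Array medians lay between 5.14 and 5.22, and a signal near or below them may be mostly background, so that differences from it are lower limits. Each gene was read by its brightest probe set, and 11649 of 18194 genes passed a filter of 2 arrays at or above the array's median. All 8 members passed. Differences were tested with limma over all 11649 genes, and calls were made where the p, adjusted by Benjamini-Hochberg over these genes, was under 0.05. Errors of a difference are standard errors (SE), and those of a group mean are SD with n = 2 arrays. Ikzf1 averaged 11.23, 11.20 and 11.65 in IkL/L DN3, DN4 and DP cells, against 11.88, 11.83 and 12.35 in WT cells of the same stages, and was lower at each stage (limma adjusted p = 0.00911, 0.0101 and 0.00454). A mean of 3 DP markers lay at 11.83 to 12.23 on IkL/L DP arrays and 12.05 to 12.29 on WT DP arrays, and at most 7.87 on DN arrays. Il2ra, the CD25 chain that marks DN3 cells, lay at 10.30 and 10.50 on IkL/L DN3 arrays, against 10.71 and 10.72 on WT DN3 arrays. In such sorted but bulk samples, fewer cells of a type and less RNA per cell cannot be told apart.

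Myc was the activator that changed most. It was high in DN3 and DN4 cells of both genotypes and fell steeply in DP cells, and IkL/L DP cells kept 2.27 times the WT DP signal. In IkL/L cells the arrays read 10.54 and 9.94 in DN3, 10.40 and 10.40 in DN4, and 6.87 and 7.52 in DP. In WT cells they read 10.58 and 10.59 in DN3, 9.99 and 10.16 in DN4, and 5.82 and 6.20 in DP. Both IkL/L DP arrays were above both WT DP arrays, and every DP array of either genotype was well below every DN array. The mean lay 0.84 above the array median in WT DP cells and 2.02 above it in IkL/L DP cells. Differences that involve WT DP cells may therefore be lower limits. Myc was read by 1 probe set.

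**Figure D1:**
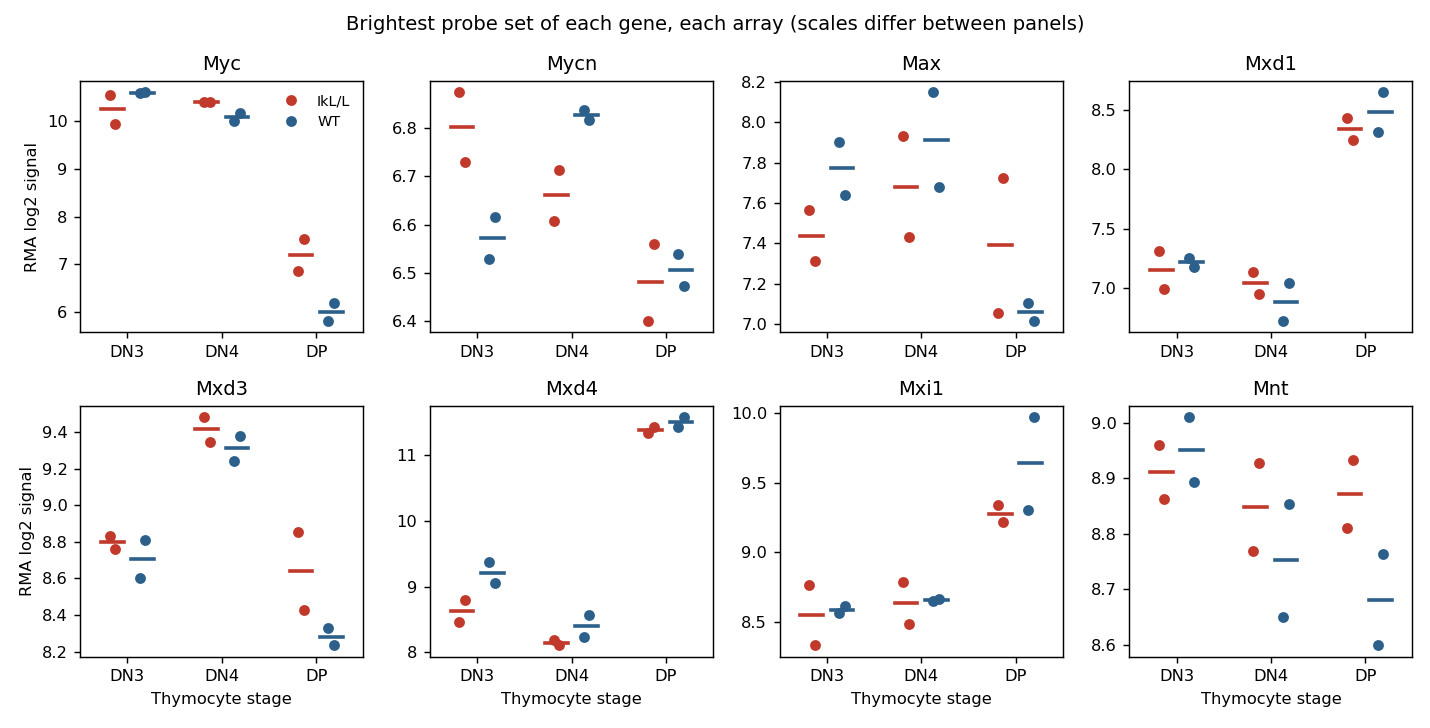
Log2 intensity of the brightest probe set of each of the 8 genes on the 12 arrays (vertical axis) by stage (horizontal axis, DN3, DN4, DP); IkL/L arrays are red and left of WT arrays, which are blue, and lines are means of 2 arrays. Myc falls in DP while Mxd4 and Mxd1 rise, and Mnt spans 0.41 over all arrays.

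The Myc difference between genotypes in DP cells was 1.18 ± 0.23 on the log2 scale (IkL/L minus WT, 95% interval 0.68 to 1.69, limma adjusted p = 0.00871). In DP cells 2 members had an unadjusted p under 0.05. The other was Mxd3, higher in IkL/L cells by 0.36 (limma unadjusted p = 0.0391, adjusted p = 0.236), with both IkL/L arrays above both WT arrays. Myc was the 1 member of 8 called in this comparison, in which 5.98% of all genes tested were called. The call was lost without WT DP replicate 1 (difference 1.00, limma adjusted p = 0.0703), without IkL/L DP replicate 2 (0.86, adjusted p = 0.0900), and when the 4 DP arrays were fitted alone (adjusted p = 0.0549). In DN4 cells Myc averaged 10.40 ± 0.00 in IkL/L and 10.08 ± 0.12 in WT cells, a difference of 0.32 (limma adjusted p = 0.412). In DN3 cells it averaged 10.24 ± 0.42 in IkL/L and 10.59 ± 0.01 in WT cells, a difference of -0.34 (limma adjusted p = 0.515) that was -0.64 without IkL/L replicate 1 and -0.04 without IkL/L replicate 2. The difference of actin 3′ and 5′ signals, a measure of RNA quality, was highest on IkL/L DN3 replicate 2 (2.86) and WT DP replicate 1 (2.86) among the 12 arrays, and its part in the Myc values that rest on these arrays was not tested beyond the covariate, with which the DP call held.

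The step into the DP stage was the largest change of Myc in both genotypes. In IkL/L cells Myc fell by 3.20 ± 0.23 on the log2 scale, so that DP cells held 10.9% of the DN4 signal (limma adjusted p = 7.99e-07). In WT cells it fell by 4.06 ± 0.23, and DP cells held 5.98% of the DN4 signal (limma adjusted p = 9.2e-08). Both calls held under all 23 alternative settings. The smaller fall in IkL/L cells was a difference between the steps of 0.86 ± 0.33 (95% interval 0.15 to 1.57), with an unadjusted p of 0.0214 and a limma adjusted p of 0.247, and it was not called. Between DN3 and DN4, Myc differed by 0.16 in IkL/L cells and by -0.51 in WT cells, and neither step was called (limma adjusted p = 0.811 and 0.205), although the WT step was when its 4 arrays were fitted alone (adjusted p = 0.0199).

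Mycn, a close relative of Myc that is best known in embryonic and neural cells, gave different patterns on its probe sets. The brightest spanned 0.47 over all 12 arrays. It was called only in the WT step from DN4 to DP, with a difference of -0.32 (DP minus DN4, limma adjusted p = 0.0405), and leaving out any 1 of 8 arrays ended it (limma adjusted p 0.0543 to 0.127). It was also lost with a trend and robust prior, the contrast's arrays alone, the actin covariate or the first IkL/L arrays alone (limma adjusted p 0.0618 to 0.121), and a second quantile normalization gave -0.52. The second brightest spanned 1.96 and was highest in DN3 cells. Its IkL/L arrays read 6.08 and 6.35 in DN3, 5.49 and 5.37 in DN4, and 5.46 and 5.12 in DP. Its WT arrays read 7.08 and 6.81 in DN3, 5.67 and 6.0 in DN4, and 5.44 and 5.21 in DP. Both IkL/L arrays were below both WT arrays in DN3 and in DN4, and in DP the genotypes overlapped near the array median.

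In the test over all probe sets, the second Mycn probe set was lower in WT DN4 than in WT DN3 cells by a log2 difference of -1.11 ± 0.17 (limma adjusted p = 0.00923), where 2.69% of probe sets were called. Leaving out WT DN3 replicate 1 (-0.98, limma adjusted p = 0.119) or WT DN4 replicate 1 (-0.95, adjusted p = 0.0962) ended the call. In IkL/L cells the same step was -0.78 (limma adjusted p = 0.077). From DN4 to DP it was lower by a further difference of -0.51 in WT cells (limma adjusted p = 0.0467), where 33.6% of probe sets were called, and any 1 of 7 arrays left out ended that call (adjusted p 0.0552 to 0.277). The genotype difference of this probe set was -0.73 in DN3 cells (limma adjusted p = 0.113) and -0.40 in DN4 cells (adjusted p = 0.239). The third Mycn probe set lay below the array median on all 12 arrays, between 4.27 and 4.91.

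Max is the shared partner of the other members. Its arrays read 7.57 and 7.31 in IkL/L DN3, 7.93 and 7.43 in IkL/L DN4, and 7.06 and 7.72 in IkL/L DP cells. In WT cells they read 7.90 and 7.64 in DN3, 8.15 and 7.68 in DN4, and 7.10 and 7.02 in DP. The 2 IkL/L DP arrays lay on either side of IkL/L DN4 replicate 2, whereas both WT DP arrays were below both WT DN4 arrays. Max fell in WT DP cells by 0.85 ± 0.24 on the log2 scale relative to WT DN4 cells (limma adjusted p = 0.00919), and this call was lost without WT DN4 replicate 1 (-0.62, adjusted p = 0.0957) and with the actin 3′ minus 5′ signal as a covariate (-0.75, adjusted p = 0.0559). That signal moved with the WT step, at 2.86 and 2.29 on WT DP arrays and 1.74 and 1.93 on WT DN4 arrays. In IkL/L cells the step was -0.29 (limma adjusted p = 0.365), and it was called without the 3 IkL/L replicate 2 arrays (-0.87, adjusted p = 0.0226). The steps differed between genotypes by 0.56 (95% interval -0.17 to 1.30, limma adjusted p = 0.462), and that difference was not called.

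Among the repressors, Mxd4 rose most in DP cells. Its arrays read 8.45 and 8.80 in IkL/L DN3, 8.18 and 8.10 in IkL/L DN4, and 11.34 and 11.44 in IkL/L DP cells. In WT cells they read 9.37 and 9.05 in DN3, 8.23 and 8.56 in DN4, and 11.43 and 11.58 in DP. All 4 DP arrays were far above all 8 DN arrays. The step was 3.25 ± 0.17 in IkL/L cells, 9.49 times the DN4 signal (limma adjusted p = 1.02e-07). It was 3.11 ± 0.17 in WT cells, 8.63 times the DN4 signal (limma adjusted p = 5.78e-08). Both calls held under all 23 alternative settings, although averaging all Mxd4 probe sets gave steps of 1.88 in IkL/L and 1.65 in WT cells. From DN3 to DN4, Mxd4 differed by -0.48 in IkL/L cells (limma adjusted p = 0.144) and fell by 0.82 in WT cells (adjusted p = 0.00928), a call that ended without WT DN3 replicate 1 (-0.66, adjusted p = 0.14) or WT DN4 replicate 1 (-0.65, adjusted p = 0.114), and with probe sets averaged (-0.39, adjusted p = 0.0884).

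Of the 8 members, Mxd4 was the one called between genotypes when the stages were averaged. In DN3 cells both IkL/L arrays were below both WT arrays, with a difference of -0.59 ± 0.17 (limma adjusted p = 0.0794), and no member was called there, where 4.28% of genes were; 1 member, Mxd4, had an unadjusted p under 0.05. In DN4 cells no member was called, where 6.88% of genes were, and none had an unadjusted p under 0.05. The Mxd4 difference was -0.26 in DN4 cells (limma adjusted p = 0.359). It was -0.12 in DP cells (adjusted p = 0.795), where the arrays of the genotypes overlapped, so the average over the stages does not stand for a difference at each stage. Averaged over the 3 stages, Mxd4 was lower in IkL/L cells by a log2 difference of -0.32 ± 0.10 (limma adjusted p = 0.0425), the 1 member of 8 called against 15.5% of genes. Any 1 of 8 arrays left out ended that call (limma adjusted p 0.0694 to 0.126), as did genotype by replicate number as a random block (adjusted p = 0.0972) and the first IkL/L arrays (0.0738). Of the 8 members, 2 had an unadjusted p under 0.05 over the stages. The other was Myc, at 0.39 ± 0.13 (limma adjusted p = 0.0706), which was called with the actin covariate (adjusted p = 0.0325), without IkL/L DN3 replicate 2 (0.0198) and without IkL/L DP replicate 1 (0.0250). The second brightest Mxd4 probe set read 6.59 and 6.36 in IkL/L DN3 and 6.42 and 6.18 in IkL/L DN4 cells, against 7.44 and 7.25 in WT DN3 and 6.91 and 6.89 in WT DN4 cells. Its genotype difference over the stages was -0.57 ± 0.10 (limma adjusted p = 0.0129, where 5.03% of probe sets were called), and the call held without any single array but was lost without the 3 IkL/L replicate 2 arrays together (-0.47, limma adjusted p = 0.124). In the same test over all probe sets, the brightest Mxd4 probe set was not called over the stages (-0.32, limma adjusted p = 0.0906). Nor were the remaining Mxd4 probe sets, at -0.19 (adjusted p = 0.393) and -0.17 (adjusted p = 0.340). In DP cells the second brightest differed by -0.22 (limma adjusted p = 0.776) and its genotypes overlapped, while the third brightest differed by 0.11 (adjusted p = 0.934). Marker genes also differed between the genotypes at the same stages. Of 3 DP-stage markers, 1 was lower in IkL/L cells in DN4 and 2 over the stages, and their mean was 6.99 to 7.09 on IkL/L DN4 arrays and 7.60 to 7.87 on WT DN4 arrays. Of 8 proliferation genes, 4 were higher in IkL/L cells in DN4 and 4 over the stages, with means of 11.45 to 11.58 on IkL/L DN4 arrays and 10.92 to 11.01 on WT DN4 arrays. Of 3 tested gamma-delta and NK cell markers, 2 were lower in IkL/L cells in DN3, 3 in DN4 and 2 over the stages. The mean of all 5 on the array was 6.09 to 6.38 on IkL/L DN3 arrays and 6.81 to 6.94 on WT DN3 arrays, and 5.59 to 5.80 on IkL/L DN4 arrays and 6.60 to 6.98 on WT DN4 arrays. Mature T cell markers averaged 5.42 to 5.66 on IkL/L DN4 arrays and 6.65 to 7.27 on WT DN4 arrays, with 1 of 3 tested called lower. Myeloid markers averaged 5.34 to 6.92 on IkL/L DN3 arrays and 5.11 to 5.13 on WT DN3 arrays, with none called. The part of these markers in the Mxd4 and Mycn differences was not tested.

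Mxd1, also called Mad1, is known as a repressor that appears as cells stop dividing and differentiate. It read 7.31 and 6.99 in IkL/L DN3, 7.13 and 6.95 in IkL/L DN4, and 8.44 and 8.25 in IkL/L DP cells. In WT cells it read 7.25 and 7.18 in DN3, 6.72 and 7.04 in DN4, and 8.32 and 8.65 in DP. Every DP array was above every DN array, and the genotypes overlapped in DP cells. The step from DN4 to DP was 1.30 ± 0.17 in IkL/L cells (limma adjusted p = 6.46e-05) and 1.60 ± 0.17 in WT cells (adjusted p = 8.53e-06). Its other probe sets stayed between 5.77 and 6.34 and between 4.85 and 5.32. With all Mxd1 probe sets averaged the steps were 0.49 in IkL/L and 0.41 in WT cells, and both were still called (limma adjusted p = 0.00642 and 0.0137).

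Mxi1, another Max-binding repressor, rose less. It read 9.34 and 9.21 in IkL/L DP and 8.79 and 8.48 in IkL/L DN4 cells, and 9.30 and 9.97 in WT DP and 8.65 and 8.67 in WT DN4 cells. The DP arrays of each genotype were above its DN4 arrays. The step was 0.64 ± 0.21 in IkL/L cells (limma adjusted p = 0.0254) and 0.98 ± 0.21 in WT cells (adjusted p = 0.0017). The IkL/L call was lost without IkL/L DN4 replicate 2 (0.49, adjusted p = 0.169), DP replicate 1 (0.58, adjusted p = 0.118) or DP replicate 2 (0.70, adjusted p = 0.0630), and without all 3 IkL/L replicate 2 arrays (0.55, adjusted p = 0.166). The second Mxi1 probe set stayed between 5.72 and 6.31, and averaging both gave steps of 0.38 in IkL/L (limma adjusted p = 0.0771) and 0.49 in WT cells (adjusted p = 0.0224). Without WT DP replicate 2 the WT step was 0.65 (limma adjusted p = 0.0172).

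Mxd3, known as the family member expressed in dividing cells, ran the other way and peaked in DN4 cells. It read 8.83 and 8.76 in IkL/L DN3, 9.48 and 9.35 in IkL/L DN4, and 8.86 and 8.43 in IkL/L DP cells. In WT cells it read 8.60 and 8.81 in DN3, 9.24 and 9.38 in DN4, and 8.33 and 8.23 in DP. The DN4 arrays of each genotype were above all its other arrays. From DN4 to DP it fell by 0.77 ± 0.15 in IkL/L cells (limma adjusted p = 0.00143) and by 1.03 ± 0.15 in WT cells (adjusted p = 0.000131). From DN3 to DN4 it rose by 0.62 in IkL/L cells (limma adjusted p = 0.0443) and by 0.61 in WT cells (adjusted p = 0.0298). The IkL/L call of that first step did not outlast the loss of any 1 of the 8 DN arrays (limma adjusted p 0.0649 to 0.262), nor the WT call that of any 1 of the 4 WT DN arrays (0.064 to 0.285). Averaging the Mxd3 probe sets ended both, at 0.58 in IkL/L (limma adjusted p = 0.0587) and 0.45 in WT cells (adjusted p = 0.108). The IkL/L call was also lost with a second quantile normalization (adjusted p = 0.0578), median centring (0.0548), the replicate block (0.0593), the 4 arrays alone (0.102) and the first IkL/L arrays (0.206).

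Mnt, a Max-binding repressor found in most cells, moved least, between 8.60 and 9.01 on all 12 arrays. On this brightest probe set its differences were at most 0.20 in size in every comparison, and none was called. The second Mnt probe set lay near the array median, between 4.83 and 5.37, and was not called either. Its largest difference in size was -0.29, between the genotypes' steps from DN3 to DN4. On the brightest probe set the DP difference between genotypes was 0.19 (95% interval -0.10 to 0.48, limma adjusted p = 0.514).

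**Figure D2:**
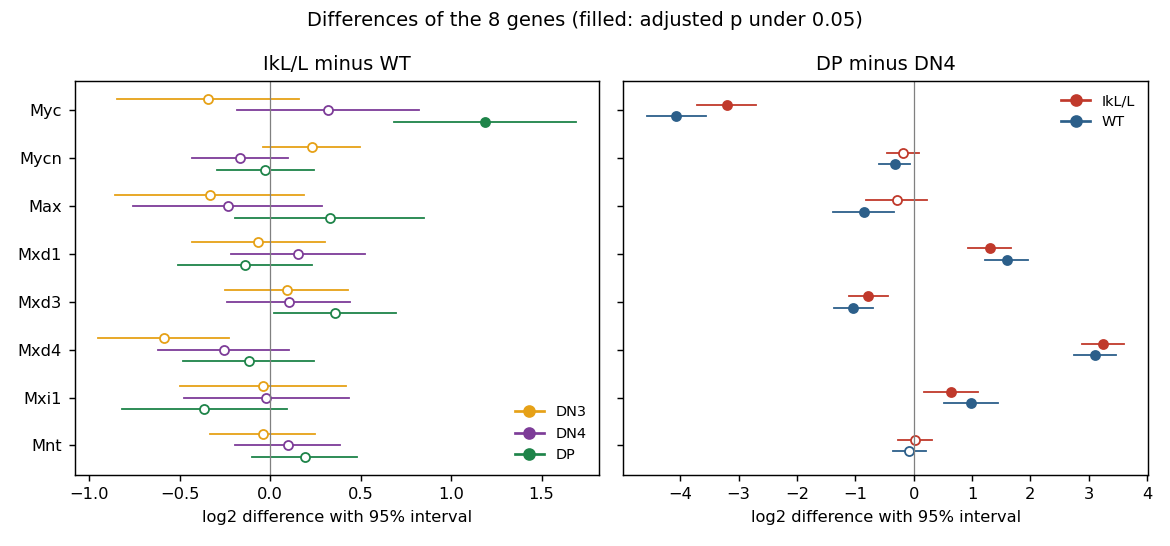
Log2 differences of the 8 genes (points) with 95% intervals, for IkL/L minus WT at each stage (left panel) and for DP minus DN4 in each genotype (right panel); filled points passed the limma test. The stage steps from DN4 to DP carry the largest differences, from -4.06 for Myc to 3.11 for Mxd4 in WT cells, and Myc in DP cells is the 1 member called between genotypes at a single stage.

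Counted together, 5 members were called in the IkL/L step from DN4 to DP, with Mxd1, Mxd4 and Mxi1 higher and Myc and Mxd3 lower in DP cells. In the WT step 7 were called, with the same 3 higher and Myc, Mycn, Max and Mxd3 lower. Of all genes, 45.5% were called in the IkL/L step (19.5% higher and 26% lower) and 57% in the WT step (23.8% higher and 33.2% lower), so the members' counts are read against a step in which much of the transcriptome moved. The members' median step was -0.08 in IkL/L and -0.20 in WT cells, beside -0.04 and -0.15 over all genes. From DN3 to DN4, 1 member (Mxd3) was called in IkL/L cells, where 4.4% of genes were called. In WT cells 2 were called (Mxd3 higher, Mxd4 lower), where 9.25% of genes were called. No member's step differed between genotypes by limma's test, where 0.0515% of genes were called for DN3 to DN4 and 0.987% for DN4 to DP; 1 member had an unadjusted p under 0.05 in each.

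**Figure D3:**
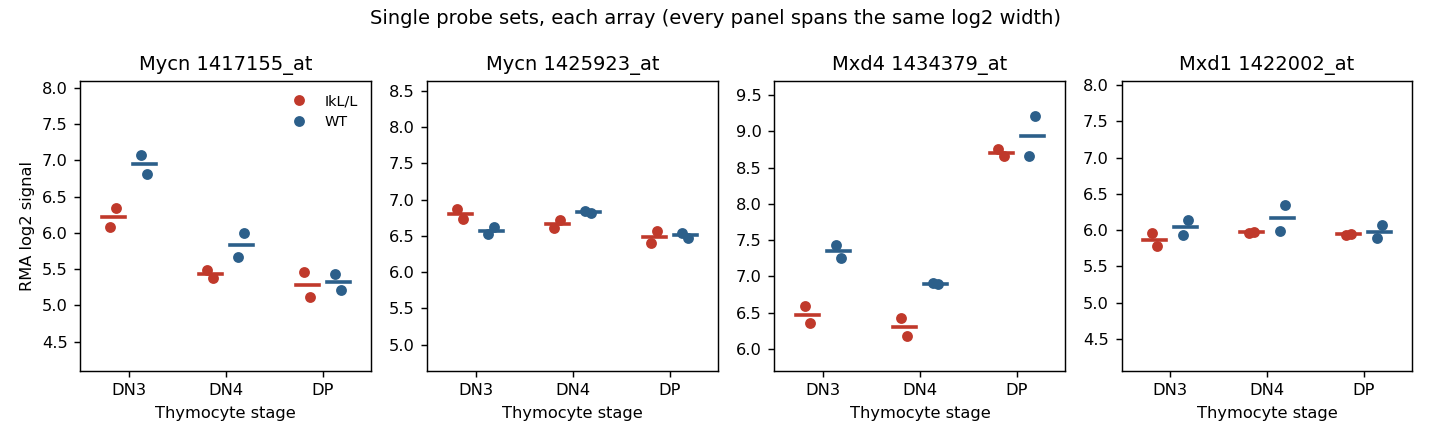
Log2 intensity on each array (vertical axis, each panel spanning the same width) by stage for 4 single probe sets: the second brightest and the brightest of Mycn, the second brightest of Mxd4 and the second brightest of Mxd1; IkL/L arrays are red and left of WT arrays in blue, and lines are means of 2 arrays. The second Mycn probe set is highest in DN3 while the brightest spans 0.47, the Mxd4 probe set rises in DP, and the Mxd1 probe set stays between 5.77 and 6.34.

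Across the 12 arrays Myc ran opposite to 3 of the repressors, with Pearson's r of -0.93 with Mxd1, -0.93 with Mxd4 and -0.89 with Mxi1. Mxd1 and Mxd4 ran together (r = 0.97). These 12 points share the split between DP and DN cells, so the values only describe that split. The genes most like Myc over the 12 arrays were Trim37 (r = 0.997), Gfra1 (0.996), Apex1 (0.996), Nifk (0.995) and Mybbp1a (0.994). Those most like Mxd3 were Cenpa (0.981), Alms1 (0.972) and Ndc80 (0.971), and those most like Mxd4 were Ypel5 (0.991), D16Ertd472e (0.988) and Wdr81 (0.988). Mxd1 was most like Clcn4 (0.995), Brox (0.993) and Tnfrsf1a (0.991), and Mxi1 most like Sec22c (0.977), Ehhadh (0.976) and Cdkn2d (0.975). Max was most like Cox7a1 (0.923), Lsm1 (0.893) and Them6 (0.892). For the near-flat members, the closest genes were H2-Eb1 (0.975), Togaram2 (0.928) and Clstn1 (0.916) for Mycn, and Sh3bp1 (0.888), Pon2 (0.868) and 1810030O07Rik (0.860) for Mnt.

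Genes known to be induced by Myc, a list of ribosome, nucleotide, polyamine and cell cycle genes, fell with it in DP cells. Of 35 list members tested, 33 fell and none rose from DN4 to DP in IkL/L cells, with a median of -1.70 beside -0.04 over all genes. In WT cells 33 fell and none rose, with a median of -1.95 beside -0.15. Over all genes, 26% fell and 19.5% rose in the IkL/L step, and 33.2% fell and 23.8% rose in the WT step. Proliferation genes were also lower in DP cells, with 8 of 8 called in IkL/L (median -1.01) and 5 of 8 in WT cells (median -0.69), and their part in the fall of the list was not tested. Srm, the spermidine synthase, differed by -3.42 in IkL/L and -4.14 in WT cells, and Cad, an enzyme of pyrimidine synthesis, by -3.21 and -3.80. Ccnd2, a G1 cyclin, differed by -3.58 in IkL/L and -3.66 in WT cells. Its 2 IkL/L DP arrays stood far apart, at 4.49 and 6.87, and the IkL/L difference was -2.39 without replicate 1 and -4.77 without replicate 2.

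**Figure D4:**
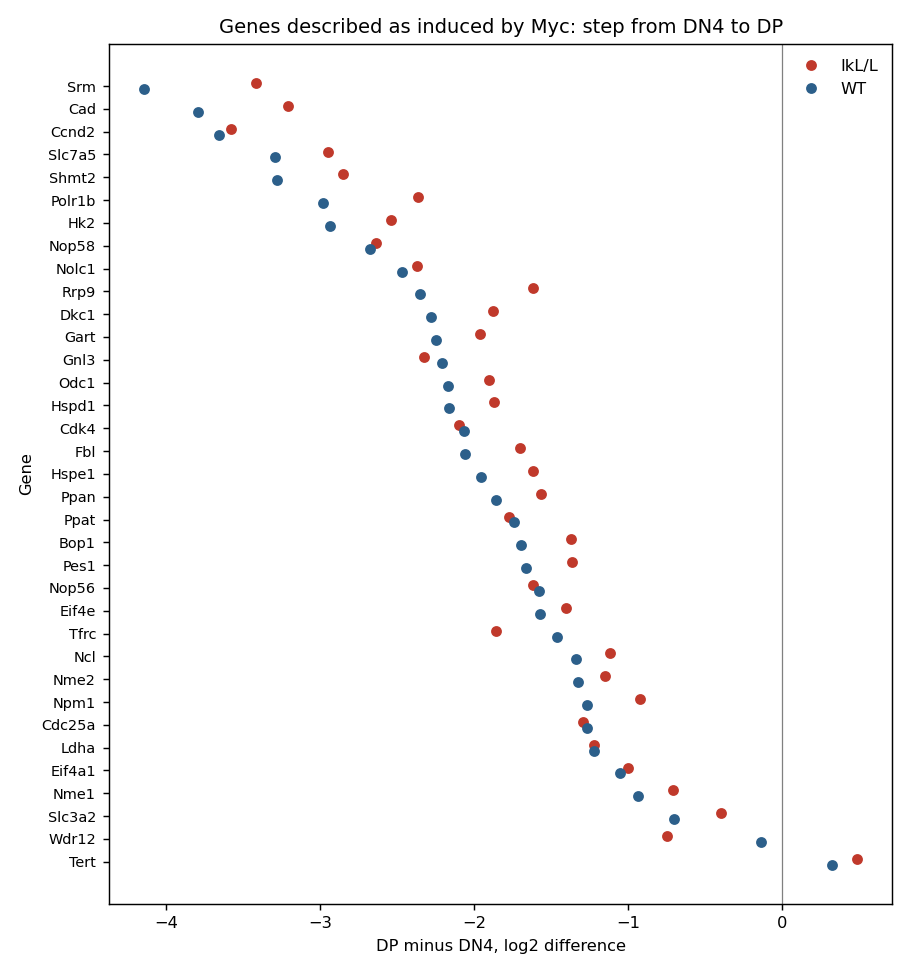
Log2 difference of DP minus DN4 cells (horizontal axis) for the 35 tested genes known to be induced by Myc (vertical axis), with IkL/L in red and WT in blue. In each genotype 34 of the 35 points lie below 0, with Tert above it at 0.48 in IkL/L and 0.32 in WT cells.

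Between genotypes in DP cells, 3 of the 35 were higher and 1 lower, where 4.36% of all genes were higher and 1.62% lower. The median was 0.27 beside 0.03 over all genes, and 30 of 35 differences were above 0. The 35 differences ranged from -1.13 to 0.62, so the largest in size was negative, and it was not called. Npm1, a nucleolar protein, read 12.68 and 12.73 in IkL/L DP cells, against 12.21 and 11.96 in WT DP cells (difference 0.62, limma adjusted p = 0.0114). Odc1, the first enzyme of polyamine synthesis, read 10.54 and 10.47 in IkL/L DP cells, against 9.91 and 9.97 in WT DP cells (difference 0.57, limma adjusted p = 0.0221). Cad read 7.58 and 7.65 in IkL/L DP cells, against 6.94 and 7.09 in WT DP cells (difference 0.60, limma adjusted p = 0.0228). For these 3 genes both IkL/L arrays were above both WT arrays, while Wdr12, a ribosome biogenesis factor, was lower (-0.48, limma adjusted p = 0.0367). The count of 1 lower became 0 in 11 of 23 alternatives. The count of 3 became 0 without either IkL/L DP array and 1 without WT DP replicate 1, and it was 0 when the 4 DP arrays were fitted alone. In DN3 and DN4 cells none of the 35 was called between genotypes.

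Of 9 tested genes listed for signals upstream of Myc in thymocytes, 4 were higher in IkL/L DP cells and none lower, against 4.36% of all genes higher. Their median was 0.79 beside 0.03 over all genes. The list holds Notch targets such as Dtx1 beside the receptors, so the count is not one of genes that act on Myc. Notch1, the receptor itself, read 12.84 and 12.77 in IkL/L DP cells, against 11.29 and 11.31 in WT DP cells (difference 1.50, limma adjusted p = 9.81e-05). Dtx1, a Notch target, read 9.04 and 10.21 in IkL/L DP cells, against 7.0 and 7.20 in WT DP cells (difference 2.53, limma adjusted p = 0.000389). Ptcra, the pre-T cell receptor alpha chain, differed by 1.63 (limma adjusted p = 0.00027) and Notch3 by 0.83 (adjusted p = 0.00611). Both IkL/L arrays were above both WT arrays for Notch1 and Dtx1. Of 4 DN3-stage markers, 2 were called higher in IkL/L DP cells (Notch3 and Dtx1), and these with Hes1 also stand in the list above. The mean of the 4 lay at 7.11 to 7.62 on IkL/L DP arrays and 6.37 to 6.44 on WT DP arrays. Il2ra, their defining surface marker, was below the array median on all 4 DP arrays, at 4.56 and 5.07 in IkL/L and 4.80 and 5.12 in WT cells. The mean of 8 proliferation genes was 10.20 to 10.58 on IkL/L DP arrays and 9.91 to 10.20 on WT DP arrays. None of the 8 was called, but all 8 differences were above 0, with a median of 0.34 beside 0.03 over all genes. The mean of 5 myeloid markers was 4.73 to 5.33 on IkL/L DP arrays and 4.92 to 4.93 on WT DP arrays, with none called. Of 5 tested thymic stroma markers, 1 was called higher in IkL/L DP cells. The mean of all 7 on the array was 5.36 to 5.43 on IkL/L DP arrays and 5.17 to 5.34 on WT DP arrays. The part of these markers in the Myc difference, and in the differences of the genes induced by Myc, was not tested.

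The remaining lists are read against the DN4 to DP step over all genes, in which 19.5% rose and 26% fell in IkL/L cells, and 23.8% rose and 33.2% fell in WT cells. Counts near those shares are no result about a list. Of the genes known to be repressed by Myc, 1 of 6 tested rose and 2 fell in IkL/L cells, and 1 rose and 3 fell in WT cells. Cdkn1b, the cell cycle inhibitor p27, was higher in DP cells by 1.37 in IkL/L and 1.64 in WT cells, whereas Ndrg1 was lower by differences of -2.94 and -1.57. For the difference between the genotypes' steps, 1 of the 6 was called lower, where 0.987% of genes were called. The lowest such difference was -1.37. Cdkn1a, the inhibitor p21, was higher in IkL/L than in WT DP cells (difference 1.24, limma adjusted p = 0.0015). It was the 1 of the 6 called there, where 4.36% of all genes were higher and 1.62% lower. Between genotypes, 1 of the 6 was also called higher in DN3, 2 in DN4 and 2 over the stages, with none lower. Of all genes, 4.28%, 6.88% and 15.5% were called in these comparisons, in either direction. Among 11 tested cofactors of Myc, 1 rose and 6 fell from DN4 to DP in IkL/L cells, and 3 rose and 5 fell in WT cells. The acetyltransferase Kat2a was among those that fell, with differences of -1.81 in IkL/L and -2.01 in WT cells. Of 7 tested genes listed as corepressors of Mxd proteins and Mnt, 1 rose and 3 fell in each genotype. Sap30, a Sin3 complex subunit, differed by -1.76 in IkL/L and -1.95 in WT cells. Fbxw7, the ubiquitin ligase subunit that marks Myc protein for degradation, rose by 0.57 in IkL/L and 1.08 in WT cells. Of 7 tested genes of Myc protein turnover, 2 rose and 3 fell from DN4 to DP in each genotype. Of 5 tested genes of the wider Max and Mlx network, none was called in that step in IkL/L cells by limma (Mga differed by 0.35, unadjusted p = 0.0235), and 2 rose in WT cells: Mga, a Max-binding repressor (1.18), and Mlxip, a partner of Mlx (0.74).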

How the data were processed

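Total RNA of sorted thymocytes was labelled in a two-cycle assay and hybridized to Affymetrix arrays, per the labels' protocols. Such amplification favours the 3′ ends of transcripts. The deposited table holds log2 intensities made with RMA, per the submitters' processing notes, and RMA pulls weak differences toward 0. All 12 value columns were used. Probe sets were named through the platform annotation: 34958 had 1 symbol, 932 several and 9209 none, and the last 2 kinds named no gene.

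Members and gene lists were chosen with earlier results of these data known. Each gene was read by its probe set of highest mean. limma 3.58.1 in R 4.3.3 fitted the 6 groups together (6 residual and 5.67 prior degrees of freedom) and gave 10 contrasts, with Benjamini-Hochberg adjustment over 11649 genes. Single probe sets were tested over all 45099 without a filter. The genes named are the 8 members, the 5 genes most correlated with Myc and the 3 with each other member, and from each list genes among the 4 called with the largest difference in a contrast (Tert and the markers were added). On simulated data for IkL/L minus WT in DP with 200 of 11649 genes changed, 77% of log2 changes of 1 and 99% of changes of 2 were recovered, with 11 false calls. The simulated noise was normal and independent between arrays. It held none of the correlated deviations given below, so recovery in the real arrays may be lower. The number of arrays limits the precision. Replicate numbers were not tied to pools of mice by the labels, and no pairing was used. Deviations of arrays with the same number correlated above 0 in 6 of 6 group pairs within a genotype (0.15 to 0.32 in WT and 0.015 to 0.49 in IkL/L cells) and in 3 of 9 across genotypes, and genotype by replicate number was tried as a random block. Alternatives covered normalization, filter, probe set choice, prior, blocks and each array left out.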

Additional observations from a re-analysis of the deposited data

How the results depend on the processing

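Among the comparisons with members called, the stage steps into DP had the most stable counts, with members called under all 23 alternatives. Some single calls within them were lost under alternatives, those of Mycn and Max in WT cells and of Mxi1 in IkL/L cells. No member was called between genotypes in DN4, or for either difference of steps, under any of 23 alternatives. The DN3 genotype count became 1 with probe sets averaged per gene and 1 with an actin 3′ minus 5′ covariate. The DP genotype count of 1 became 0 with the 4 DP arrays alone, and was 0 to 1 with 1 array left out. The count over stages was 0 with genotype by replicate number as a random block (Mxd4 -0.32, limma adjusted p = 0.0972), 0 with IkL/L represented by its first arrays (without the 3 of replicate 2) and 2 with the actin covariate, and 0 to 2 with 1 array left out. Without IkL/L DP replicate 1 that count stayed at 1, but the member was Myc (0.50, limma adjusted p = 0.0250) in place of Mxd4. The WT count of 2 from DN3 to DN4 became 0 with the mean of probe sets, was 0 to 2 with 1 array left out, and was 3, with Myc, for its arrays fitted alone. The IkL/L count of 1 for that step became 0 with the mean of probe sets, a second quantile normalization, median centring, the arrays of the contrast alone, the first IkL/L arrays and the replicate block (Mxd3 0.62, limma adjusted p = 0.0593), and was 0 to 1 with 1 array left out. The Max difference between genotypes in DP was 0.33 (IkL/L minus WT, limma adjusted p = 0.539) and was not called. It turned to -0.0034 with the first IkL/L arrays and to -0.0034 without IkL/L DP replicate 2. Over single arrays left out, that Max difference ranged up to 0.66. The Max step in IkL/L cells (DP minus DN4) turned to 0.043 without IkL/L DP replicate 1 and was -0.62 without IkL/L DP replicate 2 and -0.87 (called) without all 3 IkL/L replicate 2 arrays. The causes were not tested. The alternatives for the second Mycn and Mxd4 probe sets, for the gene lists and for Ccnd2 were chosen after seeing the data.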
